A study of Mus musculus with 9 samples.

Results

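The miR-181 family was followed through 9 small RNA libraries of mouse colon as 5 mature microRNAs (miRNAs), listed as mmu-miR-181a-5p, mmu-miR-181b-5p, mmu-miR-181c-5p, mmu-miR-181c-3p and mmu-miR-181d-5p (the mouse prefix mmu is left out below). They were taken by name from a table of 1155 entries, in which all 5 were listed, and all 5 were among the 433 miRNAs that passed the filter on low counts. The libraries came from the colon of wild-type C57BL/6J mice in 3 groups of 3. DSS_RJA mice drank water with 2.5% dextran sulfate sodium (DSS), a polysaccharide that injures the colon lining and induces colitis, and received royal jelly acid (RJA) at 10 mg/kg in 0.2 mL by daily gavage. DSS mice drank the same DSS water, and Control mice had normal food and water. No gavage is recorded for DSS or Control mice, so RJA and gavage cannot be told apart. The labels give neither the age of the mice nor the animal behind each sample, so the p-values reflect sample-to-sample spread, which may be technical. The libraries held 5985153 to 8280980 counts each, of which the smooth muscle miRNA miR-143-3p took 66.4% to 75.5%.

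A miRNA is cut from a hairpin, and 1 of its arms is loaded onto an Argonaute protein, which it guides to messenger RNAs that match its seed, bases 2 to 8. In this family the 5p arm is the usual guide, and the 3p arm is in general the passenger strand that is mostly degraded. Both arms of Mir181c, however, were sequenced in like numbers here. miR-181a is best known from lymphocytes, where it is abundant in thymocytes and tunes signalling of the T cell receptor, and it is also expressed by many cells outside the blood. miR-181c and miR-181d come from a hairpin cluster of their own, which can be transcribed apart from the miR-181a and miR-181b hairpins.

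The mature sequences show why the family is compared as a whole, since the 5p arms share a seed, and where the members part. They are given 5′ to 3′ from RefSeq (GRCm38.p6), with the seed in capitals.
miR-181a-5p: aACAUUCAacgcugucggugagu
miR-181b-5p: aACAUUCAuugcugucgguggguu
miR-181d-5p: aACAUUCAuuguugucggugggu
miR-181c-5p: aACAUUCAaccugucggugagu
miR-181c-3p: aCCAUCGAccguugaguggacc
The 4 members of the 5p arm held the seed ACAUUCA, and no other mature miRNA of the 1679 named in the reference did. A messenger RNA site that pairs with it reads UGAAUGU. Counted from the 5′ end over the 23 bases they share, miR-181b-5p and miR-181d-5p differed by 1 substitution, C12U. miR-181a-5p differed from miR-181b-5p by A9U, C10U and A21G, and miR-181c-5p equals miR-181a-5p with base 11 removed. How the authors assigned reads that match several miRNAs is not stated in any source at hand, so the split of reads between these near-identical arms is uncertain, most of all between miR-181b-5p and miR-181d-5p.

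In the GENCODE M21 annotation of GRCm38 the family had 6 hairpins at 3 loci. The build behind the authors' counts is not stated in any source at hand. Mir181a-1 (137966455 to 137966541) and Mir181b-1 (137966639 to 137966718) lay 97 bases apart on chromosome 1, plus strand, within an exon of the long noncoding RNA A430106G13Rik and an intron of Gm4258 on the same strand. Mir181a-2 (38852735 to 38852810) and Mir181b-2 (38853830 to 38853918) lay 1019 bases apart on chromosome 2, plus strand, opposite to an intron of Nr6a1. Mir181c (84178873 to 84178961) and Mir181d (84178716 to 84178787) lay 85 bases apart on the minus strand of chromosome 8, in an intron of Nanos3 on the same strand. miR-181a-5p is cut from 2 hairpins, and so is miR-181b-5p, so their reads do not tell the chromosome 1 locus from the chromosome 2 locus. The 3p arms do, as the miR-181a hairpins show with their mature arms in capitals.
Mir181a-1: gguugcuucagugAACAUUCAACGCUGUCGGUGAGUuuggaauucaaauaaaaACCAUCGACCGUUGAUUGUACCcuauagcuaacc
Mir181a-2: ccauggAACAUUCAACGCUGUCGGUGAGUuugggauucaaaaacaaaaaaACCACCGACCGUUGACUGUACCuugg
Their 5p arms are the same, and their 3p arms differ by U5C and U16C, counted from the 5′ end of each 3p arm and read from miR-181a-1-3p to miR-181a-2-3p.

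miR-181a-5p was the main member of the family in every group. Levels are CPM, reads per 1000000 of a library size scaled by TMM, a method that sets the bulk of miRNAs level between libraries. CPM holds no term for length, and the arms are 22 to 24 bases long, but adaptor ligation can favour some sequences, so levels of different members are read numbers. Averaged over the 9 libraries, miR-181a-5p stood at 861 CPM and ranked 43 of the 433 miRNAs tested. miR-181b-5p followed at 120 CPM, miR-181d-5p at 42.2 CPM, miR-181c-5p at 5.09 CPM and miR-181c-3p at 4.35 CPM. In this order neighbours did not overlap over the 9 libraries, except miR-181c-5p and miR-181c-3p, which did. Of the reads of the 4 members of the 5p arm, miR-181a-5p took 82.6% ± 2.97 in DSS_RJA, 85.4% ± 1.41 in DSS and 82.7% ± 1.23 in Control (SD, n = 3 each). miR-181c-5p rested on 25 to 52 reads in a library and miR-181c-3p on 11 to 53, so both are limited by counting error.

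**Figure D1:**
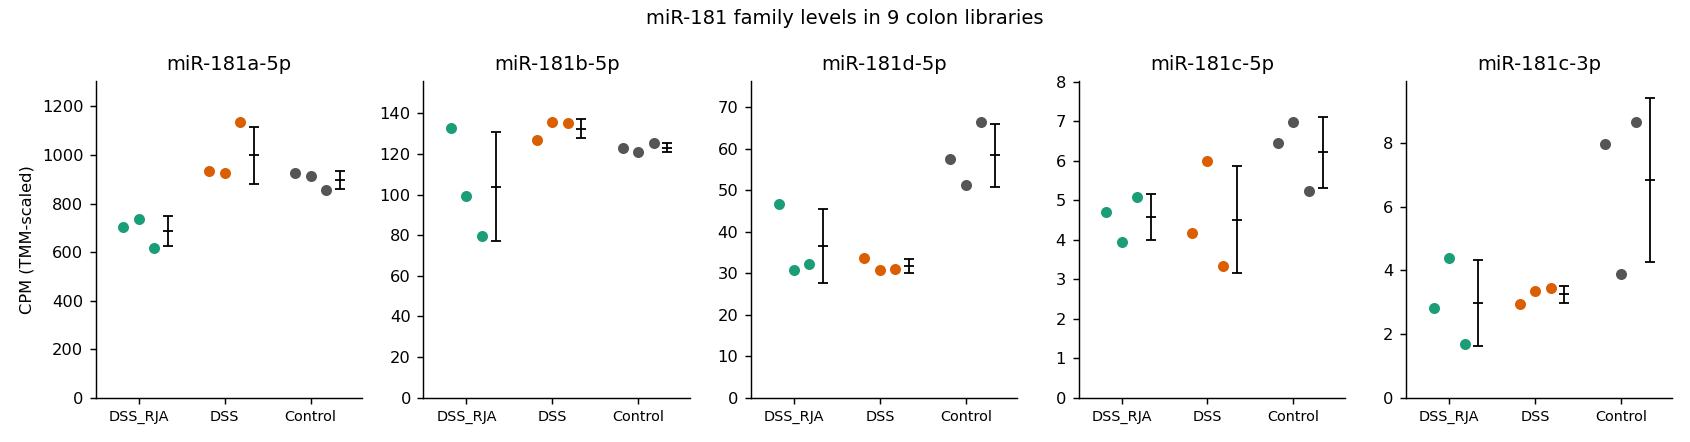
Level of each miR-181 member in CPM, 1 point per library, with DSS_RJA, DSS and Control from left to right and the group mean ± SD as a black bar beside the points. Each panel has its own linear axis from 0. The DSS libraries of miR-181d-5p lie at 30.6 to 33.6 CPM, all below the Control libraries at 51.3 to 66.3 CPM, whereas those of miR-181a-5p lie among the Control libraries or above them.

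The first comparison set colon of DSS mice against colon of Control mice. miR-181d-5p fell in DSS, and the abundant miR-181a-5p and miR-181b-5p showed no call. The level of miR-181d-5p was 33.6, 30.6 and 30.9 CPM in DSS, against 57.4, 51.3 and 66.3 CPM in Control. All 3 DSS libraries lay below all 3 Control libraries, and the DSS libraries were close to each other. It averaged 31.7 ± 1.63 CPM in DSS against 58.3 ± 7.54 CPM in Control (SD, n = 3 each), a fold change of 0.544 with a log2 value of -0.88 ± 0.21 (standard error; edgeR quasi-likelihood test, adjusted p = 0.0465). It was the only 1 of the 5 members to pass at an adjusted p under 0.05. Of all 433 miRNAs tested, 1.62% were called lower in DSS and 2.31% higher, 3.93% in all. At an unadjusted p under 0.05 stood 2 of the 5 members, miR-181d-5p and miR-181c-3p, and 33.0% of all miRNAs. In whole colon, fewer cells that make a miRNA and less of it per cell cannot be told apart.

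The call of miR-181d-5p stood near the threshold. It was kept in 8 of 17 alternative fits, with log2 values of -0.91 to -0.51 in all 17. Leaving out DSS 1, DSS 2, DSS 3, Control 1, Control 2, Control 3 or DSS_RJA 2 ended the call, with log2 values of -0.91 to -0.73 and adjusted p of 0.0579 to 0.150 (edgeR). Scaling by library size alone also ended it, at -0.51 with an adjusted p of 0.0669. That scaling moved the median of all miRNAs from 0.01 to 0.39, so every member moved up with it.

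The 2 arms of Mir181c had negative values without passing. miR-181c-3p was at 2.94, 3.34 and 3.46 CPM in DSS, against 7.98, 3.89 and 8.66 CPM in Control. The groups did not overlap, but Control 2 was close to the DSS libraries. As shares of library counts, without TMM scaling, Control 2 lay among them. The log2 fold change was -1.06 ± 0.39 (edgeR adjusted p = 0.101). miR-181c-5p was at 4.17, 5.99 and 3.35 CPM in DSS and 6.44, 6.97 and 5.23 CPM in Control, where DSS 2 lay above Control 3. Its log2 fold change was -0.47 ± 0.27 (edgeR adjusted p = 0.266).

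The miR-181a and miR-181b guides had small positive values. miR-181a-5p was at 935, 924 and 1135 CPM in DSS, against 926, 913 and 856 CPM in Control, so the groups overlapped, with DSS 3 the highest library of all. The log2 fold change was 0.15 ± 0.16 (edgeR adjusted p = 0.565). miR-181b-5p was at 127, 136 and 135 CPM in DSS, against 123, 121 and 125 CPM in Control. Its groups did not overlap, but the difference was small, at a log2 value of 0.11 ± 0.19 (edgeR adjusted p = 0.736). Among the 5 members, 2 were lower and 1 was higher in CPM without overlap between the groups. This depended on the scaling, since in shares of library counts miR-181c-3p overlapped and miR-181a-5p was higher without overlap. Over all 433 miRNAs, 22.6% were lower without overlap and 18.9% higher. The median log2 fold change of the 5 members was -0.47, beside 0.01 for all miRNAs tested. With library size alone in place of TMM, miR-181a-5p was at 0.53 and miR-181b-5p at 0.48 (edgeR adjusted p = 0.0604 and 0.0668), while the values of the other members stayed negative.

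**Figure D2:**
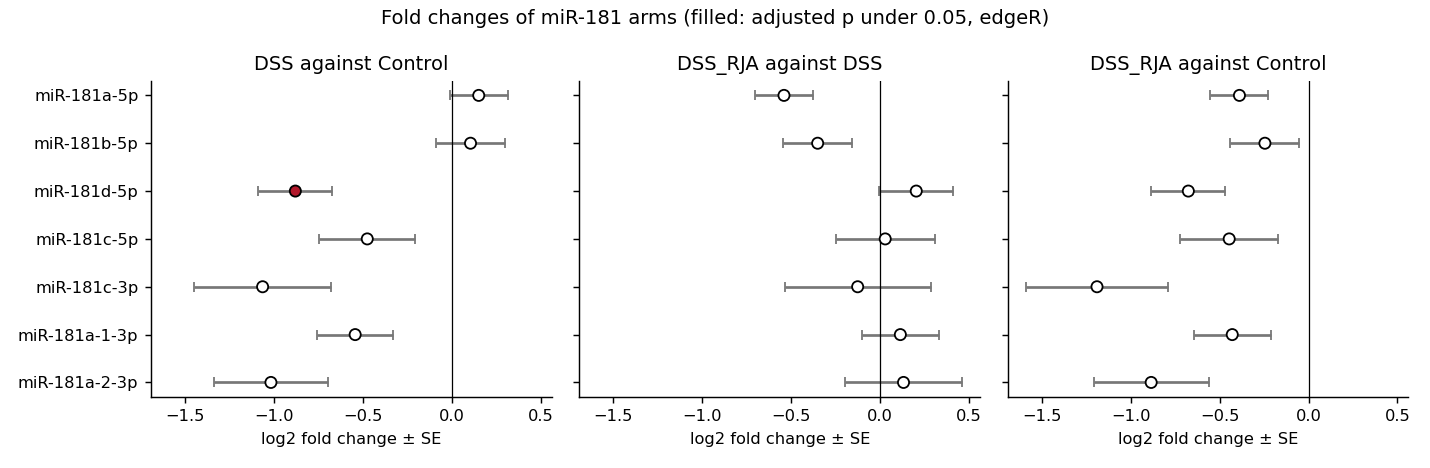
Log2 fold changes (x axis, bars are the standard error) of the 5 members and of both 3p arms of miR-181a in the 3 comparisons between groups. The filled point marks the only call at an adjusted p under 0.05 in edgeR, miR-181d-5p in DSS against Control.

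Ratios of reads within a library show whether members moved apart, because they do not depend on how libraries are scaled to each other. For every 100 reads of miR-181b-5p, the DSS libraries held 26.4, 22.6 and 22.9 reads of miR-181d-5p, against 46.7, 42.4 and 52.9 in the Control libraries. This ratio was lower in all 3 DSS libraries than in any Control library. The mean was 24.0 ± 2.14 in DSS and 47.3 ± 5.25 in Control (SD, n = 3), and the log2 ratio differed by -0.98 (exact two-sided permutation test, p = 0.1, the smallest that 3 against 3 allows, and adjusted p = 0.3 over 6 ratios). For every 100 reads of miR-181a-5p the DSS libraries held 3.59, 3.32 and 2.72 reads of miR-181d-5p, and the Control libraries 6.20, 5.62 and 7.75. Again the groups did not overlap, with a difference of -1.02 in the log2 ratio (exact permutation p = 0.1, adjusted p = 0.3).

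The ratios of miR-181c-5p went the same way with more scatter. The log2 ratio to miR-181a-5p differed by -0.64 and the log2 ratio to miR-181b-5p by -0.60 between DSS and Control, and both overlapped (exact permutation p = 0.2, adjusted p = 0.3 each). Within the loci, the ratio of miR-181b-5p to miR-181a-5p differed by -0.04 (exact permutation p = 0.9) and the ratio of miR-181c-5p to miR-181d-5p by 0.38 (exact permutation p = 0.5). Summed over both miR-181c/d guides and both miR-181a/b guides, the cluster gave 3.24 ± 0.470 reads per 100 reads of the pair in DSS and 6.34 ± 0.854 in Control. The groups did not overlap. This sum is a description without a test, and its log2 difference of -0.97 stayed between -1.05 and -0.85 when any 1 of the 6 libraries was left out.

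The same sum was 6.16, 4.15 and 5.33 reads per 100 in DSS_RJA. It was 3.55, 3.46 and 2.70 in DSS, against 6.09, 5.64 and 7.29 in Control. DSS_RJA lay above DSS without overlap, with a log2 difference of 0.68, and overlapped with Control, from which it differed by -0.29. The difference from Control came to -0.14 without DSS_RJA 2 and -0.19 without Control 3. Both DSS groups together differed from Control by -0.63, and the libraries overlapped. These values too are given without a test.

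**Figure D3:**
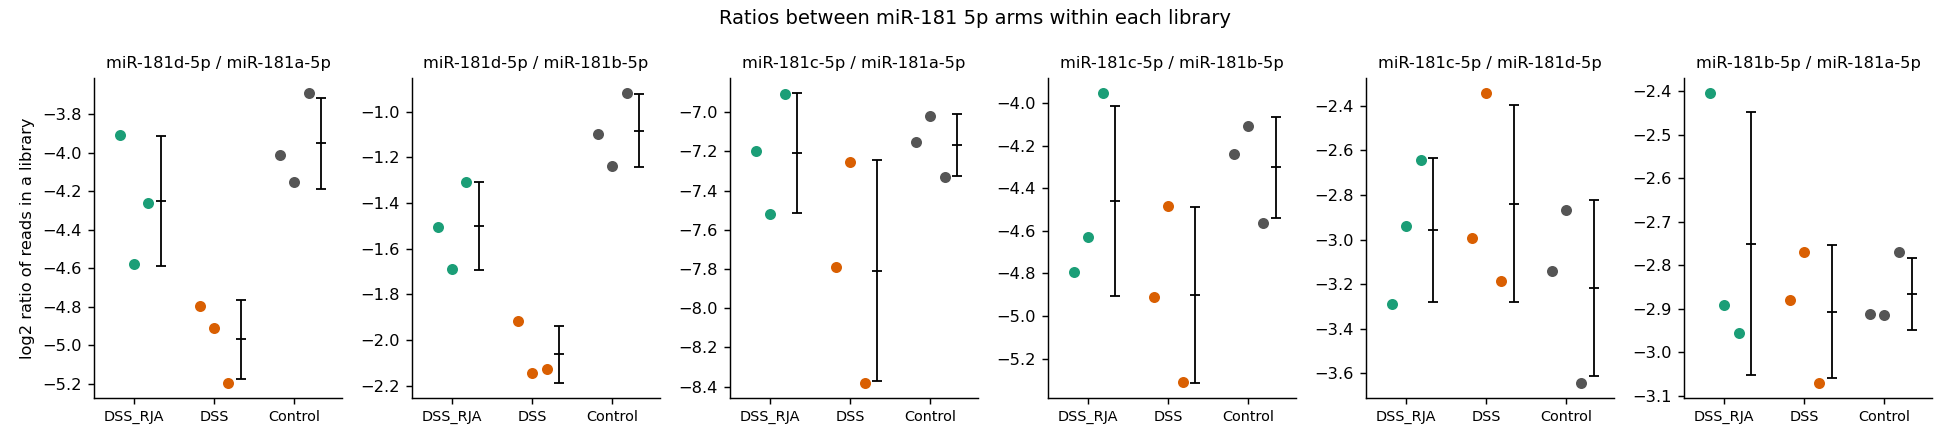
Log2 ratio of the reads of 2 miR-181 5p arms within each library, 1 point per library and the group mean ± SD in black, with DSS_RJA, DSS and Control from left to right in each of 6 panels. Each panel has its own axis. The ratios of miR-181d-5p to miR-181a-5p and to miR-181b-5p are lowest in the 3 DSS libraries, and that of miR-181b-5p to miR-181a-5p overlaps between all groups.

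Of the 5 other arms of these hairpins, 4 were listed and 2, the 3p arms of miR-181a, were tested, and miR-181d-3p was not analysed here. The 3p arms of miR-181a are passenger strands, each cut from a single locus. miR-181a-2-3p of chromosome 2 was at 5.51, 7.24 and 8.03 CPM in DSS, against 14.6, 13.7 and 13.9 CPM in Control, and the groups stood well apart. The log2 fold change was -1.02 ± 0.32 and did not pass (edgeR adjusted p = 0.0749). This arm was called in 4 of 16 alternative fits, with log2 values of -1.12 to -0.64 in all 16. The 4 were DESeq2, no filter on low counts, only the groups compared, and the fit without DSS_RJA 3. miR-181a-1-3p of chromosome 1 was at 11.3, 13.4 and 11.3 CPM in DSS and 14.3, 20.5 and 17.5 CPM in Control, also without overlap. Its log2 value was -0.54 ± 0.21 (edgeR adjusted p = 0.117). As shares of library counts, without TMM scaling, miR-181a-1-3p overlapped between the groups and miR-181a-2-3p did not. So both had negative values in DSS beside a guide, miR-181a-5p, with a positive one.

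More miR-181a-5p reads stood beside each 3p read in DSS. This ratio was chosen after the values were seen and is given without a test. It was 55.7, 44.8 and 58.8 in the DSS libraries, against 32.1, 26.7 and 27.3 in the Control libraries, with no overlap. In the DSS_RJA libraries it was 27.7, 35.8 and 39.0, below all DSS libraries and overlapping with Control. The share of miR-181a-2-3p among the 3p reads of miR-181a was 35.9% ± 10.3 in DSS_RJA, 36.5% ± 4.55 in DSS and 44.9% ± 5.30 in Control (SD, n = 3 each), and the groups overlapped. It rested on 103 to 255 reads in a library. The 95% Wilson interval was 34.5% to 49.1% in DSS 3, the highest DSS library, and 34.2% to 46.1% in Control 2, the lowest Control library. Such intervals cover counting error only, since reads amplified by PCR are not independent molecules.

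**Figure D4:**
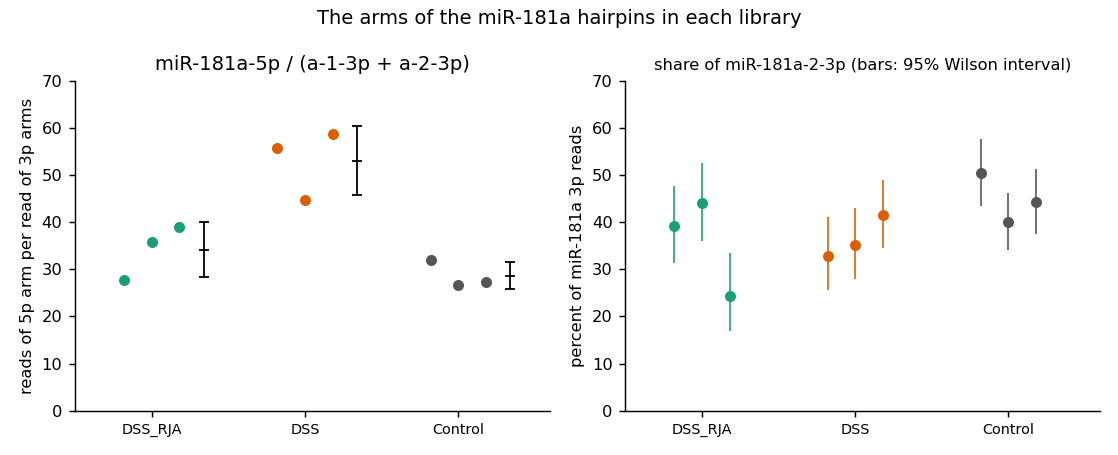
Left, reads of miR-181a-5p for each read of its 3p arms, 1 point per library with the group mean ± SD in black. Right, percent of miR-181a 3p reads that came from miR-181a-2-3p, with the 95% Wilson interval of each library. The DSS libraries stand at 44.8 to 58.8 in the left panel, above all others, and the groups overlap in the right panel.

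The second comparison set DSS_RJA against DSS and shares the DSS libraries with the first. No member of the family passed, and miR-181a-5p stood out by groups that did not overlap. miR-181a-5p was at 702, 738 and 618 CPM in DSS_RJA, against 935, 924 and 1135 CPM in DSS. It averaged 686 ± 61.4 CPM in DSS_RJA against 998 ± 118 CPM in DSS (SD, n = 3 each), a log2 fold change of -0.54 ± 0.16 (edgeR adjusted p = 0.186, and 0.00806 before adjustment). Of the 433 miRNAs, 0.231% were called higher in DSS_RJA and 0 lower, and 7.16% were lower and 6.00% higher without overlap. An unadjusted p under 0.05 was found for 1 of the 5 members and for 14.1% of all miRNAs. The value of miR-181a-5p was negative in all 17 alternative fits, from -0.72 to -0.44, and was called in none of them.

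miR-181b-5p was at 133, 99.5 and 79.7 CPM in DSS_RJA and 127, 136 and 135 CPM in DSS, where DSS_RJA 1 lay within the DSS range and DSS_RJA 3 was the lowest library of all. The log2 fold change was -0.35 ± 0.19 (edgeR adjusted p = 0.418). miR-181d-5p was at 46.7, 30.8 and 32.1 CPM in DSS_RJA against 33.6, 30.6 and 30.9 CPM in DSS, so that only DSS_RJA 1 stood above the DSS libraries. Its log2 value was 0.20 ± 0.21 (edgeR adjusted p = 0.668), and it was -0.03 without DSS_RJA 1. miR-181c-5p (0.03 ± 0.28) and miR-181c-3p (-0.13 ± 0.41) overlapped between the groups, as did miR-181a-1-3p (0.11 ± 0.22) and miR-181a-2-3p (0.13 ± 0.33).

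The ratios of miR-181d-5p to the miR-181a/b guides were higher in all 3 DSS_RJA libraries than in any DSS library. Per 100 reads of miR-181a-5p there were 6.65, 4.17 and 5.20 reads of miR-181d-5p in DSS_RJA, against 3.59, 3.32 and 2.72 in DSS, with no overlap. The log2 ratio differed by 0.72 (exact two-sided permutation p = 0.1, the smallest possible, adjusted p = 0.3 over 6 ratios). Per 100 reads of miR-181b-5p there were 35.2, 30.9 and 40.3 in DSS_RJA and 26.4, 22.6 and 22.9 in DSS, a log2 difference of 0.56 (exact permutation p = 0.1, adjusted p = 0.3). Of the levels behind the ratio to miR-181a-5p, that of miR-181a-5p was lower in DSS_RJA without overlap, and that of miR-181d-5p overlapped. The ratios with miR-181c-5p, and those within the loci, overlapped between the groups (exact permutation p of 0.2 to 0.7).

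The third comparison set DSS_RJA against Control, which shares libraries with the other two. All 5 members had negative values and none passed. miR-181d-5p was at 46.7, 30.8 and 32.1 CPM in DSS_RJA, against 57.4, 51.3 and 66.3 CPM in Control, with no overlap. Its log2 fold change was -0.68 ± 0.21 (edgeR adjusted p = 0.256, and 0.00894 before adjustment). For miR-181a-5p it was -0.39 ± 0.16 (edgeR adjusted p = 0.338), with DSS_RJA libraries at 618 to 738 CPM, all below the Control libraries at 856 to 926 CPM. miR-181c-5p, at 4.69, 3.94 and 5.07 CPM in DSS_RJA and 6.44, 6.97 and 5.23 CPM in Control, gave -0.45 ± 0.28 (edgeR adjusted p = 0.465).

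miR-181c-3p was at 2.81, 4.40 and 1.69 CPM in DSS_RJA and overlapped with Control, with the largest value of the family at -1.19 ± 0.40 (edgeR adjusted p = 0.256). miR-181b-5p also overlapped, at -0.25 ± 0.19 (edgeR adjusted p = 0.597). miR-181a-2-3p was lower without overlap, at -0.88 ± 0.32 (edgeR adjusted p = 0.268), and miR-181a-1-3p overlapped, at -0.43 ± 0.22. Of the 5 members, 3 were lower in CPM without overlap, where 11.5% of all miRNAs tested were and 10.2% were higher without overlap. As shares of library counts, without TMM scaling, miR-181a-5p and miR-181c-5p overlapped, and only miR-181d-5p of these 3 did not. No miRNA of the 433 was called in this comparison by edgeR or limma-voom, 2 were by DESeq2, and 14.3% (62 miRNAs) had an unadjusted p under 0.05, beside 3 of the 5 members. The median of the 5 members was -0.45, beside 0.03 for all miRNAs. The ratio of miR-181d-5p to miR-181b-5p was lower in all 3 DSS_RJA libraries than in any Control library, with a log2 difference of -0.42 (exact permutation p = 0.1, adjusted p = 0.6), and the other 5 ratios overlapped.

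**Figure D5:**
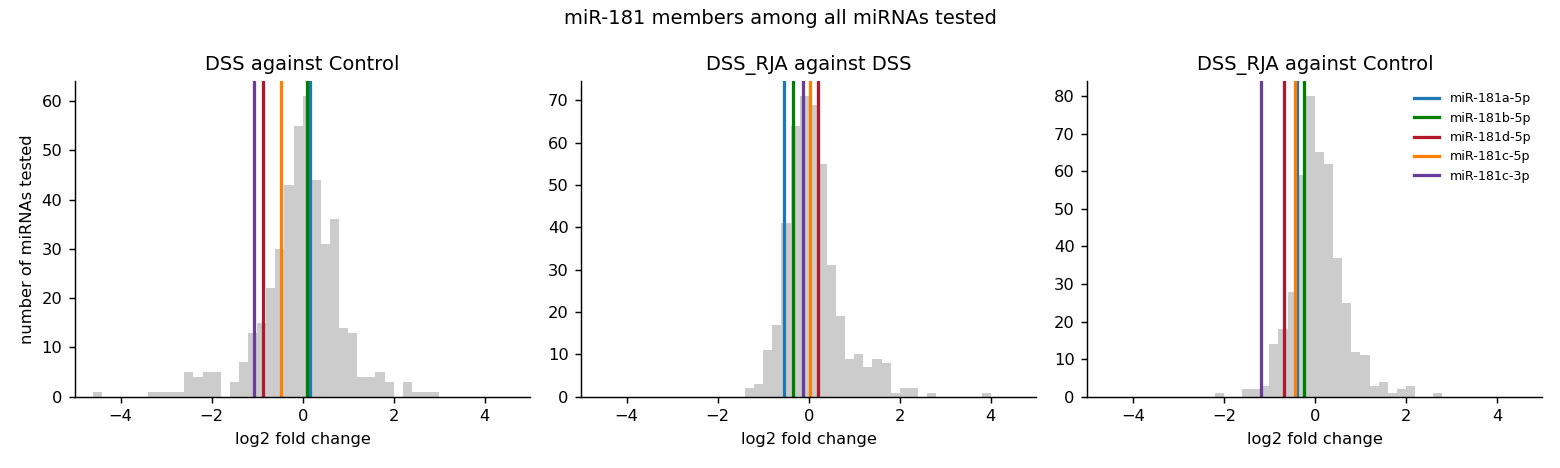
Histograms of the log2 fold changes of all 433 miRNAs tested in the 3 comparisons (x axis log2 fold change, y axis number of miRNAs), with a coloured line at each miR-181 member. In DSS against Control the miR-181c/d arms lie left of 0 and the miR-181a/b guides right of it. In DSS_RJA against Control all 5 lines lie left of 0.

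With the 6 libraries of mice given DSS set together against the 3 Control libraries, the ratio of miR-181d-5p to miR-181b-5p was lower in all 6, a log2 difference of -0.70 (exact two-sided permutation p = 0.0238, the smallest this design allows, adjusted p = 0.143 over 6 ratios). The ratio of miR-181d-5p to miR-181a-5p differed by -0.66 and overlapped, since DSS_RJA 1 at 6.65 reads per 100 lay above 2 of the Control libraries (exact permutation p = 0.0714, adjusted p = 0.214). The level of miR-181d-5p had a log2 value of -0.78 ± 0.18 and did not pass (edgeR adjusted p = 0.0594). All 6 libraries lay below all 3 Control libraries, as did 6.70% of the miRNAs tested, with 5.77% above. In this comparison 0 of the 5 members and 1.39% of all miRNAs were called, 0.693% in each direction. At an unadjusted p under 0.05 stood 2 of the 5 members and 27.7% of all miRNAs. These values rest on the same libraries as the comparisons above.

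Levels of markers of several cell types also differed between libraries. The 10 epithelial miRNAs, such as miR-192-5p, summed to 9356 to 95755 CPM in DSS_RJA and 7831 to 35467 CPM in DSS, against 92098 to 113035 CPM in Control. In each of the 4 comparisons 0 of the 10 passed. In DSS against Control 9 had negative values and 1, miR-31-5p, a positive one, at 2.22 ± 0.84. miR-31-5p had a library without reads. miR-192-5p, the most abundant, was at -2.67 ± 0.80 in DSS against Control (edgeR adjusted p = 0.0748). Among lymphocyte miRNAs, miR-342-3p rose in DSS against Control (log2 fold change 1.61 ± 0.34, edgeR adjusted p = 0.0325), the 1 called of 4 tested. All 4 had positive values there. The list summed to 305 to 1431 CPM in DSS_RJA, 1282 to 2250 CPM in DSS and 567 to 712 CPM in Control. Its most abundant member, miR-150-5p of mature lymphocytes, was at 1.51 ± 0.55 in DSS against Control (edgeR adjusted p = 0.101), beside 0.15 for miR-181a-5p. The part of these cells in the family's values was not tested.

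The smooth muscle miRNAs, led by miR-143-3p, summed to 675354 to 782883 CPM in DSS_RJA, 616507 to 651562 CPM in DSS and 776539 to 830381 CPM in Control, with 0 of 6 called. miR-143-3p was at -0.34 ± 0.13 in DSS against Control (edgeR adjusted p = 0.110). Of the 6, 5 had negative values there and 1, miR-145a-5p, a positive one, at 0.20 ± 0.16. Without TMM scaling, miR-143-3p took 68.3%, 67.2% and 75.5% of the counts in the DSS libraries. It took 70.9%, 69.3% and 66.4% in the Control libraries. These shares overlapped, so the lower CPM in DSS depended on the scaling.

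The myeloid and pan-leukocyte list, which includes the neutrophil miRNA miR-223-3p, summed to 43.5 to 208 CPM in DSS_RJA, 109 to 236 CPM in DSS and 50.9 to 87.6 CPM in Control, and 0 of 4 passed. miR-223-3p was at 2.64 ± 0.68 in DSS against Control (edgeR adjusted p = 0.0554). Of the 2 endothelial miRNAs, 0 were called. Their sum, nearly all of it miR-126a-3p, was 3926 to 5312 CPM in DSS_RJA, 3128 to 5047 CPM in DSS and 3272 to 3524 CPM in Control. In DSS against Control they had opposite signs, with miR-126a-3p at 0.28 ± 0.21 and miR-126a-5p at -0.44 ± 0.27. The neuronal list had 1 of 5 called higher in DSS than in Control, miR-129-5p, at 0.76 ± 0.15 (edgeR adjusted p = 0.0261). Positive values were found for 4 of the 5. miR-9-5p, the most abundant of that list, was at 0.79 ± 0.21 (edgeR adjusted p = 0.0554). Of the 4 fibroblast and mesenchymal miRNAs 0 passed, and all 4 had positive values in DSS against Control. The most abundant, miR-10b-5p, was at 0.29 ± 0.24 there (edgeR adjusted p = 0.438). The list of 12 miRNAs known for control of blood and immune cells is the company in which miR-181 is usually named. In DSS against Control 10 of its 12 had positive values, and 2 were called higher. The 2 called were miR-146a-5p, a brake on NF-κB signalling (1.26 ± 0.19, edgeR adjusted p = 0.00762), and miR-342-3p, which the lymphocyte list holds too. None of the 12 passed in DSS_RJA against DSS or against Control. With both DSS groups together against Control 1 was called higher, miR-146a-5p (1.00 ± 0.17, edgeR adjusted p = 0.0256). The list's median log2 value was 0.63 in DSS against Control and -0.50 in DSS_RJA against DSS. Its most abundant member, miR-24-3p, was at -0.09 ± 0.18 and 0.17 ± 0.18 in these 2 comparisons (edgeR adjusted p = 0.772 and 0.668).

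The members were also set beside all other miRNAs by their pattern over the libraries. Likeness was measured as the SD, over the 9 libraries, of the difference in log2 CPM between a member and each of 239 other miRNAs of at least 10 CPM. miR-181a-5p was closest to let-7a-5p (0.0850), miR-145a-5p (0.0994) and let-7c-5p (0.106), and miR-181b-5p to let-7c-5p (0.127), let-7b-5p (0.136) and miR-191-5p (0.163). miR-181a-5p and miR-181b-5p differed from each other with an SD of 0.187, which only 6 of the 239 miRNAs undercut for miR-181a-5p. The SD of miR-181d-5p was lowest to miR-143-5p (0.173), miR-30d-5p (0.190) and miR-30e-3p (0.201). That of miR-181c-5p was lowest to miR-10a-3p (0.195), miR-30d-5p (0.217) and miR-126a-5p (0.234). Membership of a locus did not order the miR-181c/d arms in a uniform way. For miR-181d-5p the SD was 0.373 to miR-181c-5p (rank 44), 0.445 to miR-181b-5p (rank 74), 0.485 to miR-181c-3p (rank 92) and 0.506 to miR-181a-5p (rank 102), where the median over all 239 was 0.533. For miR-181c-5p it was 0.373 to miR-181d-5p (rank 61), 0.410 to miR-181b-5p (rank 79) and 0.439 to miR-181a-5p (rank 107), with a median of 0.467. To miR-181c-3p, cut from the same hairpin, it was 0.673 (rank 188), the farthest of the family. These are descriptions over the same 9 libraries, in which both arms of Mir181c had few reads.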

How the data were processed

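Small RNA of mouse colon was ligated to adaptors, amplified by PCR and sequenced as single reads of 50 bases from inserts of 18 to 40 bp, per the labels' protocols. Bowtie and DESeq are named in the submitters' processing notes, with no version or role. Build, annotation, strand and the treatment of reads with several matches are not stated in any source at hand. Per the file headers, the authors' table gives a read count for each mature miRNA and sample. The TPM values the authors deposited equalled those counts per 1000000 of the library total (largest difference 4.66e-10), so the counts alone were used.

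Groups follow the sample titles. Counts were tested with edgeR 4.0.16 in R 4.3.3 (filterByExpr with a minimum count of 10, TMM, quasi-likelihood test, all 9 libraries with 1 mean per group, 6 residual degrees of freedom), with Benjamini-Hochberg adjustment over 433 miRNAs and a threshold of 0.05. Standard errors, which are approximate, come from the log2 fold change and its F statistic. Log2 ratios add 0.5 reads to each count, and each of 6 ratios of 5p arms was tested by exact permutation of libraries. Alternatives used DESeq2 1.42.0, limma-voom (limma 3.58.1), RLE or no scaling factors, other filters, fewer libraries and the sample number as a block. In simulated counts made for DSS against Control, 44.9% of 2-fold rises and 59.2% of 0.5-fold falls were called among 421 miRNAs, and 1.32% of unchanged ones. Only 228 of the 421 were unchanged, whereas 17 of 433 were called in the data. The adjusted threshold was thus easier to pass in the simulation, and the shares of changes called may be too high for the data. No replicates looked like 1 library deposited again, since even the closest pair had a chi-square of 37 per degree of freedom.

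Named miRNAs were the 5 members, the other arms of their hairpins, the 3 miRNAs most like each 5p arm, and of each list its called members and its most abundant 1. The members, the lists of cell type markers and immune miRNAs, and the tests were chosen with earlier results of these data known. Sequences are from RefSeq (GRCm38.p6).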

Additional observations from a re-analysis of the deposited data

How the results depend on the processing

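Of 836 values recomputed under an alternative, 725 kept their direction and side of the threshold. Another 29 turned direction, 0 of them called. In DSS against Control, 17 miRNAs were called, and 65 with DESeq2, 38 with limma-voom, 73 with library size only (64 higher and 9 lower, beside 10 and 7 with TMM), 73 with no filter, 88 with only those groups, 4 with the replicate block and 3 to 90 with 1 library left out. The family's 1 call became 0 with library size only, 0 with the replicate block and 0 to 1 with 1 library left out. In DSS_RJA against DSS, 1 was called, and 15 with DESeq2, 40 with no filter, 2 with RLE factors, 0 to 37 with 1 library left out, and 0 with limma-voom, the 10 CPM filter, only those groups or the replicate block. In DSS_RJA against Control, 0 were called, and 2 with DESeq2, 2 with only those groups, 19 with no filter and 0 to 1 with 1 library left out. In both DSS groups together, 6 were called, and 40 with DESeq2, 42 with library size only (38 higher and 4 lower, beside 3 and 3), 7 with limma-voom, 11 with the 10 CPM filter, 54 with no filter, 0 with the replicate block and 0 to 40 with 1 library left out. There the family had 0 calls, 1 with DESeq2, 1 with the 10 CPM filter, 2 with no filter (miR-181d-5p and miR-181c-3p) and 0 to 1 with 1 library left out. The cause of these shifts was not tested.

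The direction turned in these cases. With library size only, miR-181c-5p was -0.14, miR-181a-1-3p -0.075 and miR-181a-2-3p -0.067 in DSS_RJA against DSS, and miR-181a-5p 0.17 and miR-181b-5p 0.20 in both DSS groups together, where the 10 CPM filter gave 0.0021 for miR-181b-5p. With 1 library left out, DSS_RJA against DSS ran from -0.15 to 0.25 for miR-181c-5p, from -0.55 to 0.15 for miR-181c-3p, from -0.030 to 0.30 for miR-181d-5p, from -0.043 to 0.18 for miR-181a-1-3p and from -0.11 to 0.43 for miR-181a-2-3p. Both DSS groups together ran from -0.14 to 0.037 for miR-181b-5p. Among the ratios it ran from -0.29 to 0.13 (c over d) and -0.016 to 0.26 (b over a) in DSS_RJA against DSS, from -0.41 to 0.011 (c over b), -0.057 to 0.22 (b over a) and -0.19 to 0.11 (c over a) in DSS_RJA against Control, from -0.11 to 0.041 (b over a) in DSS against Control and from -0.048 to 0.086 (b over a) in both together.

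Same-numbered samples did not deviate together (correlations of -0.46 to 0.18 over 9 pairs, 1 of them over 0.1). This gave no sign of pairing by number, but deviations from means of 3 libraries cannot exclude it. With the block, miR-181d-5p in DSS against Control was at -0.88 (edgeR adjusted p = 0.0688). The depth limits miR-181c most, at 11 to 53 reads of either arm.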

Other observations

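The rarest arms of the family did not pass the filter on low counts. miR-181b-1-3p, the passenger strand of the chromosome 1 hairpin, had 3 to 6 reads in DSS_RJA, 4 to 7 in DSS and 0 to 2 in Control, that is 13, 16 and 4 reads in all. miR-181b-2-3p had 1 read in all of DSS_RJA, 1 in DSS and 0 in Control. These reads are too few for a level.

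Both arms of Mir181c were sequenced in like numbers. miR-181c-3p took 38.4% ± 13.9 of the reads of both arms in DSS_RJA, 42.7% ± 7.58 in DSS and 51.2% ± 13.8 in Control (SD, n = 3 each), and the groups overlapped. In Control alone it took 35.8% in Control 2 (95% Wilson interval 26.2% to 46.7%) and 62.4% in Control 3 (51.7% to 71.9%), so 2 libraries of untreated colon lay apart by more than their counting error.

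The family as a whole took 0.0832% ± 0.00869 of the library in DSS_RJA, 0.133% ± 0.0187 in DSS and 0.0954% ± 0.00366 in Control, counted over the 4 members of the 5p arm and without TMM scaling. Without that scaling the median log2 value of all miRNAs in DSS against Control was also raised, at 0.39. With it, the 5 members summed to 737 to 889 CPM in DSS_RJA, 1100 to 1307 CPM in DSS and 1062 to 1120 CPM in Control. DSS and Control overlapped there.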
